A study of Danio rerio with 12 samples.

Results

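Interferon-stimulated effector genes are the working end of the anti-viral interferon response, and 10 of them were followed in the zebrafish brain, namely *isg15*, *rsad2*, *ifi27.7*, *ifi35*, *ifit8*, *ifi30*, *usp18*, *isg20*, *samhd1* and *adar*. They were chosen by name, with earlier results of these data known. The probes of the array were matched to them through the RefSeq transcript that each probe is listed for. Of the 10 genes, 6 were matched, each by 1 probe, out of 43603 probes that are not controls. These were *rsad2*, *ifi27.7*, *ifit8*, *adar*, *ifi30* (current symbol *ifi30a*) and *samhd1*. No probe was matched to *isg15*, *ifi35*, *usp18* or *isg20*, which are not analysed here. Of the 6 genes, 5 were tested, because the *samhd1* probe was not well above background, in the scanner software's own call, on any of the 12 arrays.

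Interferons are cytokines that cells release when they sense viral nucleic acid, such as the double-stranded RNA (dsRNA) that many viruses form as they replicate. They bind receptors at the cell surface that signal through Janus kinases and STAT proteins, and with interferon regulatory factors these switch on a large set of genes. The products of that set, the effectors, block viral entry, translation, genome replication or release, cut viral RNA, or present viral antigen. In the brain, neurons and glia can respond to interferon, and microglia are the resident cells that present antigen.

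The study asked how access to warmer water, by which fish raise a behavioural fever, alters the brain's response to dsRNA. Whole-brain RNA of 4 groups of adult zebrafish was hybridized to 12 Agilent arrays of 1 colour, 3 for each group. C (labelled Control) were fish without injection. Sd (labelled PBS) received saline into the body cavity and were held in a thermal gradient. Ti (labelled PIC_sG) received poly(I:C), a synthetic dsRNA, by the same route and without the gradient, and Td (labelled PIC_G) received it and had the gradient. The labels place the C fish in the gradient and the methods outside it. Ti fish were injected and C fish were not, so that dsRNA and injection cannot be told apart in Ti against C. By the labels the gradient differs there as well. The labels give a dose of 1 mg per kg and a sampling time of 24 with no unit, and the methods give another dose. By the labels and methods each array held a pool of 3 brains, or 9 fish per group, although the study's text elsewhere speaks of individual fish. The strain is not given in the sources used here. Poly(I:C) stands in for a virus in these fish, and no virus was given.

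Replicate numbers are also slides, and each of the 3 slides held 1 array of each group. A group lay at 1 fixed position on all slides, so that group and position cannot be told apart. Between 6330 and 21900 of 43803 features were well above background on an array, and Ti replicate 3 was the dimmest. Its processed signal had a 75th percentile of 34.5 intensity units, where the other arrays had 97.8 to 537. The signal of a gene is given as log2 of the processed signal minus the log2 of that array's 75th percentile, called scaled log2 signal below, so that 0 is the level of the 75th percentile. Such values compare 1 probe between arrays and do not rank one gene against another. Markers of neurons, astroglia and oligodendrocytes were well above background in these libraries (9 of 9 matched markers on at least 1 array). So were all matched markers of microglia and leukocytes (7), muscle (5), blood cells (3), eye (2) and epithelium (2). The 3 matched endothelial markers *kdrl*, *cdh5* and *flt1* were so on none. In the authors' table of the whole series, the 3 Ti columns held the values of the Td scanner files and the 3 Td columns those of the Ti scanner files, whereas the 6 columns of C and Sd held their own. All 12 tables per sample held the values of their own scanner file (tolerance 0.001 on the natural log scale). The labels of the scanner files were used. Under the other assignment the Ti and Td values of every gene below change places, every difference between Td and Ti turns its sign, and the comparison of both dsRNA groups with both groups without dsRNA stays as it is.

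Of the 5 genes tested, 2 were higher in Ti and Td together than in C and Sd together, the comparison that "with dsRNA" names below. It is the mean of Td against Sd and Ti against C, so that injection enters it through C. In Td against Sd, where both groups were injected, neither *rsad2* nor *ifi27.7* was called (limma, adjusted p = 0.214 and 0.109). *rsad2* was 6.62-fold higher, with dim C and Sd arrays set as described below and 5 of 6 dsRNA arrays well above background. *ifi27.7* was 3.22-fold higher in Ti and Td than in C and Sd. Each had an adjusted p under 0.05 from limma. Over all transcripts tested in this comparison, 1.45% passed that threshold in either direction. *rsad2* passed the filter on dim probes only through dsRNA arrays, which favours a difference, so that the count of 2 is a description of these genes. *adar*, *ifit8* and *ifi30* did not pass the test, and their differences were 0.65, 0.92 and -0.01 on the log2 scale. The plot of scaled log2 signal by array shows the values behind these differences.

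**Figure D1:**
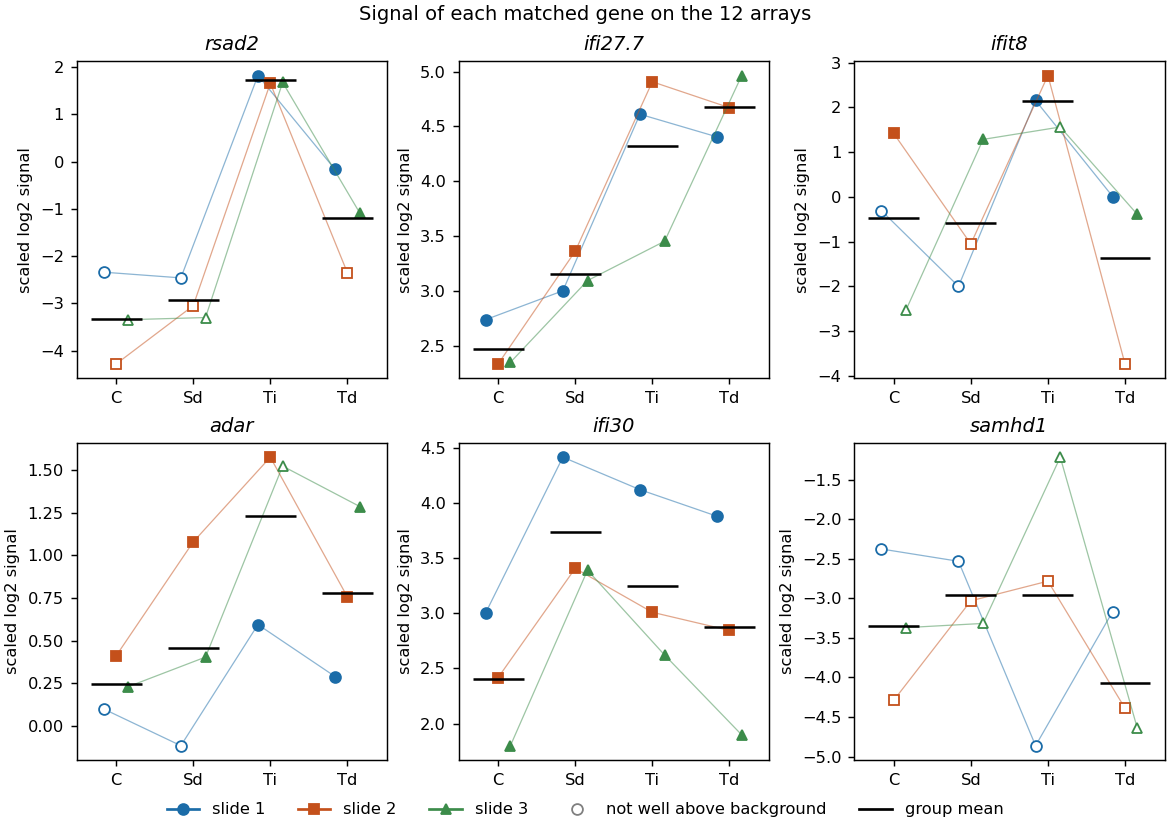
Scaled log2 signal (vertical axis, log2 units relative to each array's 75th percentile) of the 6 matched genes on the 12 arrays, by group (C, Sd, Ti and Td, horizontal axis). Symbols and joined lines mark slides, open symbols are arrays on which the probe was not well above background, and bars are group means. *rsad2* was well above background on 5 arrays, all of them Ti or Td, and *samhd1* on none.

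*rsad2* encodes viperin, a radical-SAM enzyme that in mammals makes a nucleotide which stops viral RNA synthesis. Its scaled log2 signal was -2.34, -4.28 and -3.35 on the C arrays of replicates 1, 2 and 3 and -2.46, -3.05 and -3.30 on the Sd arrays. It was 1.82, 1.66 and 1.68 on the Ti arrays and -0.17, -2.35 and -1.09 on the Td arrays. The Ti arrays lay above all others and close together, with a mean of 1.72 ± 0.09 (SD, n = 3), whereas Td replicate 2 lay within the range of C and above all Sd arrays. The probe was well above background on all 3 Ti arrays, on Td replicates 1 and 3, and on no C or Sd array. Folds in such cases set each array of the lower group at its own signal or at a floor, whichever is higher. The floor is the lowest signal of any probe well above background on that array. Arrays of the higher group enter at their measured signal. "At least" is written only where all of those were well above background. It holds for the processed signal and not for every background correction.

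Against C, *rsad2* was at least 23.9-fold higher in Ti on the processed signal, or 4.58 on the log2 scale. The fitted log2 difference was 5.04 (SE 0.57, adjusted p = 0.00122), and with normexp background correction it was 3.29. In Td, where 2 of 3 arrays were well above background, *rsad2* was 1.83-fold higher than in Sd by the same rule. Td replicate 2 enters there at a dim reading, so that this fold is no minimum. The fitted difference of 1.74 (SE 0.57, 95% interval 0.48 to 2.99, adjusted p = 0.214) did not pass the threshold, and with normexp correction it was 0.81. The groups did not overlap, but the gap lay between Td replicate 2 (-2.35) and Sd replicate 1 (-2.46), neither well above background. Whether the groups overlap thus rests on dim readings. With array weights the difference passed (adjusted p = 0.0317), in a fit that called 2066 of 16136 transcripts, against 42 without weights. Over both dsRNA groups the fitted difference was 3.39 (SE 0.40, adjusted p = 0.00148), and within slides 1, 2 and 3 it was 3.23, 3.32 and 3.62. With the arrays as labelled, this call was made in each of 9 other settings that could be run (adjusted p = 0.00019 to 0.0172). The difference ran there from 2.05 with normexp correction to 3.78 with quantile normalization. *rsad2* was also called in all 12 fits that left out 1 array (adjusted p = 0.0011 to 0.00821). Only the setting with no filter on dim probes (adjusted p = 0.00913) did not pick *rsad2* through its dsRNA arrays. The other fits did, and so do not test the call independently. In Td the transcript was 2.92 lower on the log2 scale than in Ti (SE 0.57, 95% interval -4.17 to -1.67). All 3 Td arrays lay below all 3 Ti arrays, and within slides the difference was -1.99, -4.01 and -2.76. The unadjusted p of 0.000308 from limma gave an adjusted p = 0.599 over all transcripts, so that the difference was not called. The probe was not well above background on Td replicate 2, so that the value within slide 2 and the mean difference, which holds it, rest on a dim reading. With the other assignment of the dsRNA arrays, *rsad2* is the higher in Td by the same amount. It then lies 4.65 above Sd in Td (adjusted p = 0.0058) and 2.12 above C in Ti (adjusted p = 0.0912). The gap between both differences, Td minus Sd set against Ti minus C, was -3.31 (SE 0.81, adjusted p = 0.147), a test added after the values had been seen. This test also holds injection, because Ti fish were injected and C fish were not. In that test 0 of the 16136 transcripts had an adjusted p under 0.05 from limma and 14.2% had an unadjusted p under 0.05. By group means Ti was the highest and Td the next, and C and Sd, where no array was well above background, have no order. Neither Ti and Td nor Td and Sd differed at an adjusted p under 0.05. In the current assembly (GRCz12tu), *rsad2* lies near *cmpk2*, which no probe was matched to.

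*ifi27.7* belongs to the ifi27 (ISG12) family of small hydrophobic proteins, which in mammals are made after interferon and act on mitochondria and on cell death. Its probe was well above background on all 12 arrays. The scaled log2 signal was 2.74, 2.34 and 2.35 in C and 3.00, 3.36 and 3.096 in Sd. It was 4.61, 4.91 and 3.45 in Ti and 4.40, 4.67 and 4.96 in Td. All 6 dsRNA arrays lay above all 6 arrays without dsRNA, and the lowest of them was the dim array, Ti replicate 3. Such a separation was seen in that direction in 1.28% of all transcripts tested, and in either direction in 1.74%.

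Over both dsRNA groups *ifi27.7* was 3.22-fold higher (log2 difference 1.69, SE 0.26, adjusted p = 0.00903), and within slides 1, 2 and 3 the log2 difference was 1.64, 1.94 and 1.49. It was called in 8 of 11 other settings and in all 12 fits without 1 array. The call was lost with scaling to the 50th percentile (log2 difference 1.57, adjusted p = 0.288), normexp background correction (1.81, adjusted p = 0.238) and no filter on dim probes (1.69, adjusted p = 0.0970), while the size of the difference changed little. In Ti against C the difference was 1.85 (SE 0.37, adjusted p = 0.0406). That call was made in 6 of 11 other settings. It was kept without Sd replicate 1 or without Ti replicate 3 and was lost without any other single array, with the highest adjusted p of 0.172 without C replicate 3. In Td against Sd the difference was 1.53 (SE 0.37, 95% interval 0.71 to 2.35, adjusted p = 0.109). Without Ti replicate 3, which enters this comparison only through the shared estimate of the spread, the adjusted p was 0.04. That fit called 121 of 16122 transcripts in this comparison, against 42 with all arrays.

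Between Td and Ti *ifi27.7* differed by 0.36 (SE 0.37, 95% interval -0.47 to 1.18, adjusted p = 0.863). Within slides the difference was -0.21, -0.24 and 1.51, and without Ti replicate 3 it was -0.08. The means in Ti (4.32 ± 0.77) and Td (4.68 ± 0.28) were thus separated by less than the spread of the Ti arrays. The 3 Sd arrays lay above the 3 C arrays by 0.68 on average (SE 0.37, adjusted p = 0.318). Of all transcripts, 16.7% were separated in that direction in this comparison and 28% in either. In ascending order the group means ran C, Sd, Ti and Td. In the GRCz12tu assembly the gene lies among its paralogues *ifi27.2*, *ifi27.4*, *ifi27.6* and *ifi27.8*, and whether its probe also binds their transcripts was not examined, because no probe sequences were used here.

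The summed signal of muscle markers was lower in Ti (286 to 374) and Td (341 to 393) than in C (436 to 713) and Sd (709 to 1194), in multiples of the 75th percentile. Of 5 markers, 5 were matched and 4 tested. In Ti and Td against C and Sd 1 was called lower, against 0.223% of all transcripts. The sum moved with the comparison in which *rsad2* and *ifi27.7* rose. In Ti against C, where both genes were also called, 3 further sums did not overlap. Of all single transcripts, 17.7% did not overlap there. The sum of microglia and leukocyte markers (7 of 10 matched, 0 of 7 called with dsRNA) was higher in Ti, at 305 to 381 against 175 to 225. The sums of oligodendrocyte markers (3 of 4 matched, 0 called with dsRNA) and astroglia markers (4 of 4 matched, 0 called with dsRNA) were lower in Ti, at 12.8 to 16.6 against 23.8 to 39.5 and at 50.4 to 75.5 against 77.8 to 129. These calls with dsRNA are those in Ti and Td against C and Sd. In Td against Sd the microglia and leukocyte sum was lower, at 302 to 406 against 430 to 510, whereas the sums of oligodendrocyte and astroglia markers overlapped. The part of these markers in the results was not tested.

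**Figure D2:**
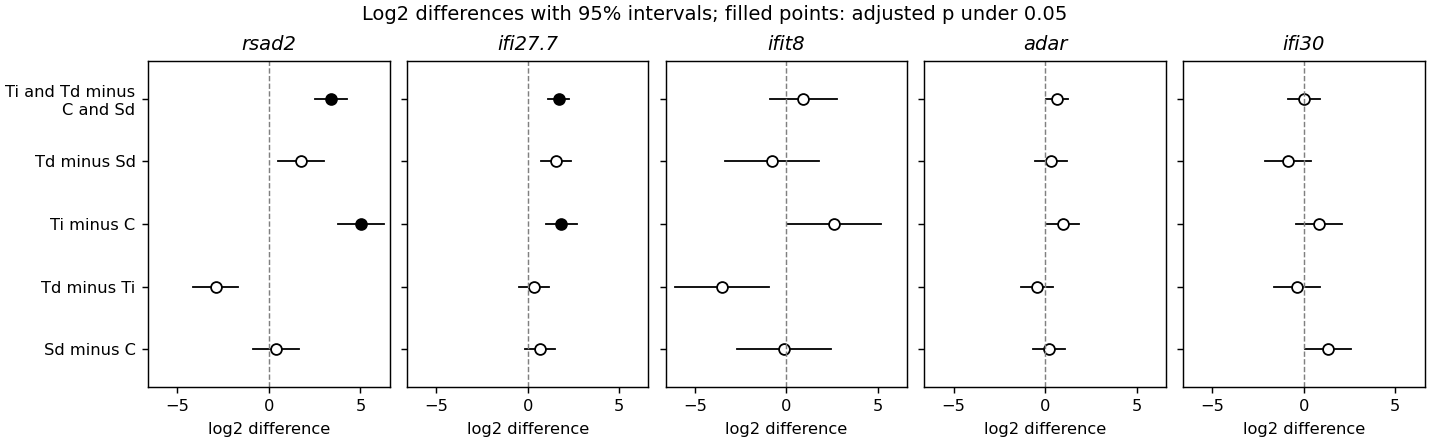
Log2 differences (horizontal axis) of the 5 tested genes in the 5 comparisons (vertical axis), with 95% intervals from limma over 3 arrays per group. Filled points have an adjusted p under 0.05, which were *rsad2* and *ifi27.7* in Ti and Td against C and Sd and in Ti against C.

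*ifit8* belongs to the family of tetratricopeptide-repeat proteins whose mammalian members bind the ends of viral RNA and hold back its translation. Its scaled log2 signal was -0.31, 1.42 and -2.53 in C and -2.00, -1.05 and 1.29 in Sd. It was 2.16, 2.71 and 1.56 in Ti and 0.01, -3.74 and -0.39 in Td. The Ti arrays were above all others, and C, Sd and Td overlapped with one another. Of the 12 arrays, 6 had a probe signal well above background, namely C replicate 2, Sd replicate 3, Ti replicates 1 and 2, and Td replicates 1 and 3.

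In Ti *ifit8* was 2.62 above C on the log2 scale (SE 1.18, 95% interval 0.04 to 5.197, adjusted p = 0.308). Within slides 1, 2 and 3 the difference was 2.46, 1.30 and 4.09. The groups did not overlap, but the gap lay between C replicate 2 (1.42) and Ti replicate 3 (1.56), which was not well above background. In Td it was -0.79 from Sd (SE 1.18, adjusted p = 0.826), and within slides the difference was 2.01, -2.69 and -1.68. The 3 Td arrays lay below the 3 Ti arrays, at a difference of -3.52 (SE 1.18, 95% interval -6.10 to -0.94, adjusted p = 0.774). Within slides that difference was -2.15, -6.45 and -1.96. Td replicate 2 and Ti replicate 3 were not well above background, so that the values within slides 2 and 3 and the separation rest in part on dim readings. Over both dsRNA groups the difference was 0.92 (SE 0.83, adjusted p = 0.649), with 2.24, -0.70 and 1.21 within slides. *ifit8* varied most among the 5 genes between arrays of 1 group, with a residual SD of 1.68 against 0.43 to 0.77 for the others, and its intervals are wide for that reason. Sd and C differed by -0.12 (95% interval -2.70 to 2.46, adjusted p = 0.969).

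*adar* encodes the enzyme that changes adenosine to inosine in double-stranded RNA, and in mammals it keeps the cell's own dsRNA from setting off the interferon response. Its scaled log2 signal was 0.10, 0.41 and 0.23 in C, -0.12, 1.08 and 0.40 in Sd, 0.59, 1.57 and 1.52 in Ti, and 0.29, 0.76 and 1.29 in Td. All Ti arrays lay above all C arrays, and the remaining groups overlapped with their neighbours. The probe was well above background on 9 arrays, and not on C replicate 1, Sd replicate 1 and Ti replicate 3. In Ti it was 0.98 above C (SE 0.40, 95% interval 0.10 to 1.86, adjusted p = 0.264), with 0.49, 1.16 and 1.29 within slides. Over both dsRNA groups the difference was 0.65 (SE 0.28, adjusted p = 0.297), positive within every slide (0.45, 0.42 and 1.09). Td differed from Sd by 0.32 (adjusted p = 0.788), from Ti by -0.45 (adjusted p = 0.828), and Sd from C by 0.21 (adjusted p = 0.814). Of these, the difference between Td and Ti turned to 0.32 when the arrays were scaled to the 50th percentile, where the median of all transcripts moved from 0.18 to 0.95. Relative to that median it was -0.63 in both settings.

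*ifi30* encodes a lysosomal thiol reductase that opens disulphide bonds of swallowed proteins for presentation on class II molecules, and in mammals it is induced mainly by type II interferon in antigen-presenting cells. Its probe was well above background on all 12 arrays. The scaled log2 signal was 3.00, 2.42 and 1.80 in C and 4.41, 3.41 and 3.39 in Sd. It was 4.12, 3.01 and 2.62 in Ti and 3.88, 2.84 and 1.90 in Td. Within each group replicate 1 was the highest and replicate 3 the lowest, which are slides 1 and 3, and the Sd arrays lay above all 3 C arrays. Over the 4 groups, slides 1, 2 and 3 deviated from the group means by 0.79, -0.15 and -0.64 on average.

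Over both dsRNA groups the difference of *ifi30* was -0.01 (SE 0.40, 95% interval -0.89 to 0.87, adjusted p = 0.994). Between Sd and C the difference was 1.33 (SE 0.57, adjusted p = 0.200), and within slides 1, 2 and 3 it was 1.41, 0.99 and 1.59. With the slide as a block the standard error was 0.27 and the adjusted p was 0.0283, so that this call depended on the block. If the C fish were outside the gradient, as the methods have it, injection and gradient cannot be told apart in this comparison. Over all transcripts, deviations from the group means correlated most between C and Sd arrays of 1 slide. For *ifi30* the slide deviations ran through all 4 groups. Its standard error with the block was also 0.27 in Td against Sd and Ti against C. It was called in neither (limma, adjusted p = 0.155 and 0.139). Of all transcripts, 7.26% were called in this comparison with the block and 3.7% without it. The summed signal of microglia and leukocyte markers (7 of 10 markers matched, 5 of these well above background on all arrays) ran from 175 to 225 in C, 430 to 510 in Sd, 305 to 381 in Ti and 302 to 406 in Td, in multiples of the 75th percentile. It was thus higher in Sd than in C, as *ifi30* was, and its part in that difference was not tested. A higher share of such cells and more RNA per cell cannot be told apart in these pools. Ti was 0.84 above C (SE 0.57, adjusted p = 0.503), and Td was -0.86 from Sd (SE 0.57, adjusted p = 0.563). Td differed from Ti by -0.38 (95% interval -1.62 to 0.87, adjusted p = 0.901), and by 0.40 with scaling to the 50th percentile, or by -0.56 in both settings relative to the median of all transcripts.

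*samhd1* encodes a hydrolase that in human cells lowers the pool of DNA building blocks and so holds back retroviruses. Its processed signal ran from 9.32 to 44.5 intensity units over the 12 arrays, and the probe was not well above background on any of them. The scaled log2 values ran from -4.86 (Ti replicate 1) to -1.22 (Ti replicate 3, the dimmest array), both within 1 group. It was not tested with the filter on dim probes. In the fit without that filter, its log2 differences ran from -1.11 to 0.39 over the 5 comparisons and none was called (limma, lowest adjusted p = 0.392), and these are differences between readings that were not well above background.

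Read across the comparisons, *rsad2*, *ifi27.7*, *ifit8* and *adar* each had 3 Ti arrays above all 3 C arrays, a separation that 17.7% of all transcripts showed in either direction. At an adjusted p under 0.05, *rsad2* and *ifi27.7* were called in this comparison, against 1.23% of all transcripts. *rsad2* passed the filter only through dsRNA arrays, so that its separations and calls against C and Sd are a description here. In Td against Sd, *rsad2* and *ifi27.7* lay higher in Td without overlap, against 16.7% of all transcripts in that direction and 24.3% in either. For *rsad2* this rests on Td replicate 2 and Sd replicate 1, neither well above background. Of the 5 genes, 0 were called in Td against Sd, against 0.26%. At an unadjusted p under 0.05 from limma, *rsad2* and *ifi27.7* were below the threshold in that comparison, as were 13.4% of all transcripts. Between Td and Ti, *rsad2* and *ifit8* lay lower in Td without overlap, against 2.42% of all transcripts in that direction and 12% in either. For *ifit8* this separation and that of Ti from C rest in part on Ti replicate 3, where its probe was not well above background. Of the 5 genes, 0 were called there, against 0.0062%. At an unadjusted p under 0.05 *rsad2* and *ifit8* were below the threshold there, as were 5.87% of all transcripts. Td against Sd and Ti against C have no arrays in common, while each shares its arrays with the other comparisons. By group means *rsad2*, *ifit8* and *adar* were highest in Ti, *ifi27.7* in Td and *ifi30* in Sd.

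The same order could be set against 134 other genes of the interferon pathway, of which 62 were matched and 51 tested. Of the 51, 11 rose and 0 fell in Ti and Td against C and Sd, with a median log2 difference of 0.69 against 0.07 for all transcripts, of which 1.23% rose and 0.223% fell. In Ti against C, 12 rose and 0 fell (median 1.19 against 0.00), where 1.15% of all transcripts rose and 0.0806% fell. *mxe* and *herc56.3* are in both counts and *irf10* is in the second. These 3 passed the filter only through dsRNA arrays, which favours a difference and makes the counts a description. Among the 17 pathway genes that were well above background on all 12 arrays, and so passed through no single group, 4 rose with dsRNA in a fit of such transcripts alone (*xaf1*, *parp12b*, *ifi27.1* and *ifi27.2*), against 1.18% of all of these. In Ti against C 6 of the 17 rose in that fit, against 1.64%. The lists were chosen with earlier results of these data known, so that these counts are no independent test. Among the 51 genes, 2 rose and 0 fell in Td against Sd (median 0.36 against 0.10), where 0.223% of all transcripts rose and 0.0372% fell. Of these 2 genes, *mxe* passed the filter only through dsRNA arrays, so that this count is a description too. No gene of these lists was called between Td and Ti (median -0.09 against 0.18). *irf7* differed there by -1.64 (adjusted p = 0.774), with the other sign if the dsRNA arrays are exchanged.

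Receptors and ligands showed no calls with dsRNA. Of 5 interferon receptor genes tested none was called in Ti and Td against C and Sd (median 0.00), nor was either of the 2 interferon ligands tested, among them *ifnphi1* at 1.02 (SE 0.25, adjusted p = 0.0738). Of 5 signal transducers none was called there (median 0.53). Of 6 interferon regulatory factors 1 rose, *irf7*, which amplifies interferon production, by 3.86 on the log2 scale (SE 0.43, adjusted p = 0.000901). Of 7 sensors and adaptors 2 rose, *pkz*, a fish kinase with domains that bind Z-form nucleic acid, by 2.68 (SE 0.28, adjusted p = 0.000735), and *tlr3*, a receptor for dsRNA.

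Among effectors outside the 10, 3 of 4 Mx GTPases rose, which in mammals trap viral ribonucleoproteins. *mxe* was at least 19.9-fold higher in Ti and Td and was well above background on all 6 of these arrays and on no other. *mxb* rose by 4.86 (SE 0.52, adjusted p = 0.000762) and *mxa* by 3.26 (SE 0.32, adjusted p = 0.000491). Of 7 other effectors, *xaf1* and *parp12b* rose. *herc56.3*, the only gene tested of the ISG15 conjugation list, was 8.13-fold higher by the rule used for *rsad2*. Its probe was well above background on 5 of 6 dsRNA arrays and on no other array. *tlr3*, *parp12b* and *herc56.3* were the remaining 3 of the 11 and are named after their values had been seen. Of 11 immunoproteasome and class I genes none was called (median 0.67), a list whose products, like that of *ifi30*, serve antigen presentation.

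Of 20 listed paralogues of the 10 genes, 4 were matched and 3 tested, and 2 of these, both paralogues of *ifi27.7*, rose with dsRNA. *ifi27.2* rose by 3.59 (SE 0.30, adjusted p = 0.000178) and *ifi27.1* by 3.01 (SE 0.33, adjusted p = 0.000789) in Ti and Td, and both were well above background on all 12 arrays. Between Td and Ti they differed by -0.21 (SE 0.43, adjusted p = 0.930) and -0.50 (SE 0.46, adjusted p = 0.835). The third paralogue tested, *adarb1a*, an editing enzyme related to *adar*, had a difference of 0.11 (SE 0.27, adjusted p = 0.887). In Td against Sd, *mxe* (at least 11.2-fold) and *ifi27.2* (log2 difference 2.86, SE 0.43, adjusted p = 0.0385) were the 2 genes that rose. In Ti against C the genes with the lowest p were *mxe* (at least 35.2-fold), *mxa* (at least 22.7-fold) and *ifi27.2* (log2 difference 4.32, SE 0.43, adjusted p = 0.000477).

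Pathway genes also rose without dsRNA in Sd against C, where *ifi30* had its largest difference. These were *mxa* (3.25-fold by the rule used for *rsad2*, adjusted p = 0.0303), *irf8* (log2 difference 2.23, SE 0.50, adjusted p = 0.0376) and *mhc1zba* (1.74, SE 0.39, adjusted p = 0.0389). *irf8* is needed for microglia and macrophages in fish and mammals. *ikbke*, a kinase of the sensing pathway, fell 2.77-fold by that rule (adjusted p = 0.0407), and it is named after its value had been seen. *mxa* was well above background on 2 of 3 Sd arrays and *ikbke* on 2 of 3 C arrays. Of the 51 genes tested, 3 rose and 1 fell in this comparison, where 2.5% of all transcripts rose and 1.2% fell. The log2 difference was above 0 for 41 of the 51, with a median of 0.57 against 0.07 for all transcripts.

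**Figure D3:**
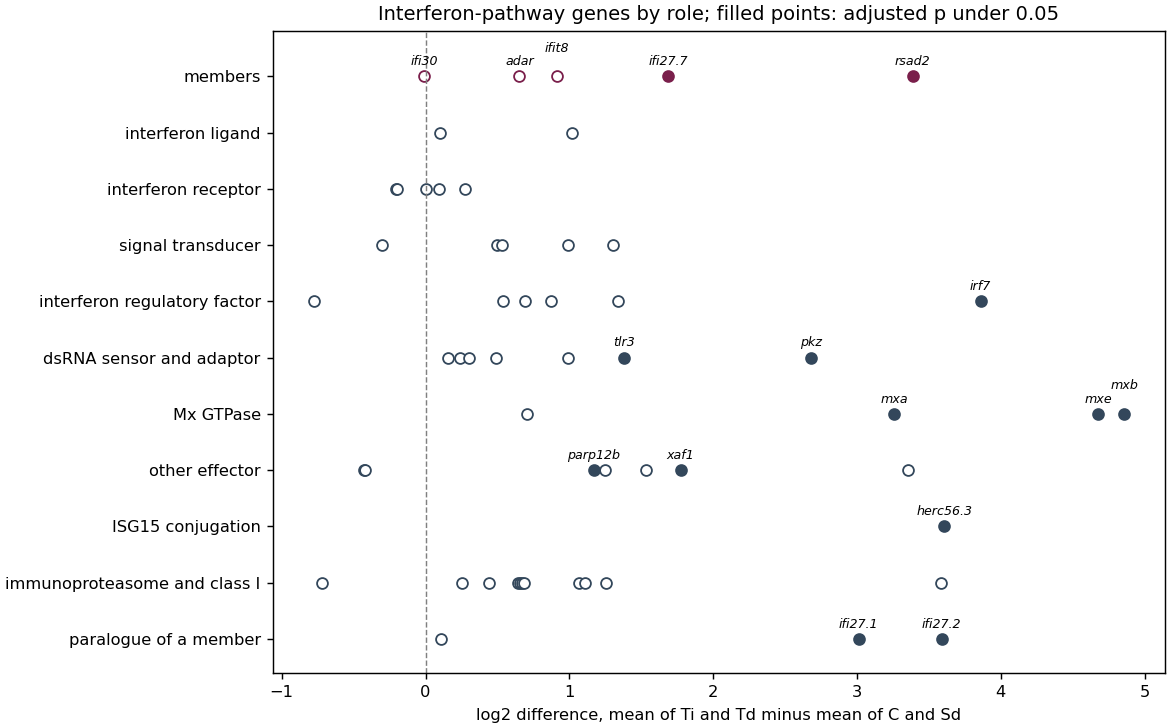
Log2 difference of Ti and Td against C and Sd (horizontal axis) for the 5 tested genes (first row) and 51 other genes of the interferon pathway, by role (vertical axis). Each point is 1 gene, and the 13 filled points have an adjusted p under 0.05, all of them above 0.

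The mean of the 5 standardized profiles over the 12 arrays was set against 8034 transcripts with a gene symbol. The closest were *mxa* (Pearson's r = 0.936), *parp12b* (0.926), *irf7* (0.926), *lgals3bp.3* (0.923), *ifi44c2* (0.921), *btr29* (0.920), *scrn3* (0.913) and *dazap2* (0.912). Of these 8 genes, *mxa*, *parp12b* and *irf7* were on the pathway lists. These values describe 12 arrays of 4 groups, which share their group differences and their slides. Among the 5 genes themselves, *rsad2* correlated at 0.67 with *ifi27.7*, 0.54 with *ifit8* and 0.56 with *adar*, whereas *ifi30* correlated at -0.35 with *adar* and at 0.13 to 0.23 with the others.

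**Figure D4:**
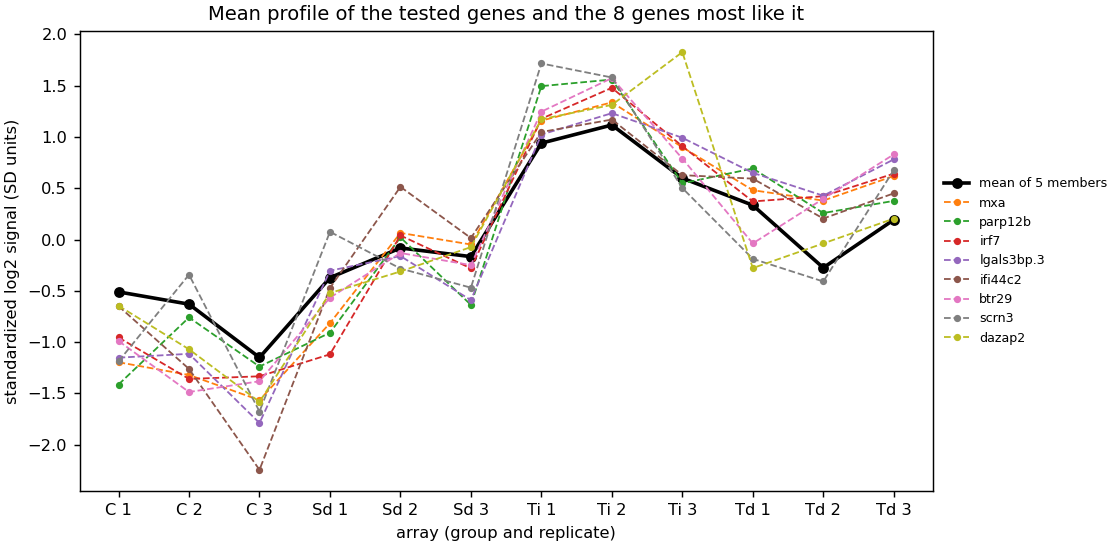
Standardized scaled log2 signal (vertical axis, in SD units over the 12 arrays) on each array (horizontal axis) for the mean of the 5 tested genes (black) and the 8 genes most like it (dashed). The mean of the 5 genes was negative on all C and Sd arrays and positive on the Ti arrays, and on the Td arrays it was positive on replicates 1 and 3 and negative on replicate 2.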

How the data were processed

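RNA from 4 groups of brains was measured on 12 arrays. The authors deposited the scanner output of each array (Agilent Feature Extraction 10.7.3.1, design 019161 in the header, where the methods name another version and design), whose processed signal is a linear intensity after subtraction of background and detrending, with no scaling between arrays. In the tables that the authors deposited per sample and for the series, values are the natural log of the signal after background subtraction. Groups were taken from the sample labels. Probes were named through their RefSeq accession (GRCz12tu gene table), and 16568 of 43603 had 1 symbol. No coordinates are given, because the array's build is another one, and no sequences were used here.

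Repeated features of a probe were averaged as log2 values after leaving out spots marked as outliers, and each array's 75th percentile was subtracted. A probe was kept if it was well above background on 3 or more of the 12 arrays (19142 probes), and the median over the probes of a gene gave 16136 transcripts. limma 3.58.1 in R 4.3.3 fitted 1 model with 4 group means, with moderated two-sided tests and Benjamini-Hochberg adjustment over all transcripts. The fit was tested on simulated data with independent noise on each array. These held no slide effect and no limit from background, so that the simulation does not cover either. Only 3 arrays per group limit the precision. A p-value sets a difference between group means against the moderated spread of arrays within all 4 groups.

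All genes of the list were to be named, and of the other pathway genes those called with dsRNA (at most 8 by lowest p) and at most 3 per other comparison, with the 8 genes most like the mean profile. The genes and lists were chosen with earlier results of these data known. Some genes of the signal transducer list are not reported here and were left out of its counts. Normexp correction used the median signal and median background with an offset of 50, since the mean signal that had been planned was not used here. Deviations from the group means correlated between arrays of the same replicate number at 0.557, 0.256 and 0.285 for Sd and C, so that the numbers, which are slides, paired these groups, but at 0.129, 0.168 and -0.195 for Td and Ti, at 0.401, 0.133 and -0.014 for Td and Sd, and at 0.137, 0.166 and 0.033 for Ti and C.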

Additional observations from a re-analysis of the deposited data

How the results depend on the processing

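The number of the 5 genes called was 2 in Ti and Td against C and Sd, 0 in Td against Sd, 2 in Ti against C, 0 in Td against Ti and 0 in Sd against C. In the first of these it was 1 with scaling to the 50th percentile, normexp correction or no filter on dim probes (*rsad2*), and 1 with the log values of the tables per sample or with probes well above background on all 12 arrays (*ifi27.7*). In Ti against C it was 1 with each of these except the log values of the tables, where it was 0, and 1 without eBayes or with the dsRNA arrays exchanged. In Td against Sd it was 1 with the log values of the tables, 2 with array weights and 1 with the arrays exchanged. Over all transcripts these fits called 748 of 14849, 2066 of 16136 and 158 of 16136, against 42 of 16136 in the main fit. Leaving out 1 array gave 2 in every fit of the first comparison, 0 to 1 in Td against Sd, 1 to 2 in Ti against C, and 0 in the others. The replicate block (slide) gave 1 in Sd against C (*ifi30*) and changed no other call. In the log values of the tables *rsad2* had too few values to be tested, and with probes well above background on all 12 arrays *rsad2*, *ifit8* and *adar* were not tested.

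Only differences that were not called changed sign. With *ifi30* in Ti and Td against C and Sd, the value was 0.0487 with quantile normalization, 0.14 with normexp, 0.33 with the tables' log values, 0.0808 with array weights and -0.26 to 0.23 with 1 array left out. For *ifit8* in Td against Sd it was 0.92 with the tables' log values, 2.73 exchanged and -1.49 to 0.40 with 1 array left out. Exchanged, *ifit8* was at -0.90 in Ti against C, and Td against Ti was 2.92 for *rsad2*, -0.36 for *ifi27.7*, 3.52 for *ifit8*, 0.38 for *ifi30* and 0.45 for *adar*. Scaled to the 50th percentile, *ifi30* and *adar* were at 0.40 and 0.32 there. With 1 array left out, *ifi27.7* ran from -0.0792 to 0.65 and *ifi30* from -0.88 to 0.11 in that comparison. In Sd against C, *ifit8* was at 0.88 with array weights, *adar* at -0.0234 with the 50th percentile and -0.30 with the tables' log values, and with 1 array left out *rsad2* ran from -0.0942 to 0.88, *ifit8* from -1.14 to 0.83 and *adar* from -0.10 to 0.49. The causes were not tested. Over all transcripts, the number called ran from 43 (normexp) to 1153 (array weights) around 234 with dsRNA, 0 (no filter) to 2066 (array weights) around 42 in Td against Sd, 39 (50th percentile) to 489 (array weights) around 198 in Ti against C, 0 to 10 (without Ti replicate 1) around 1 in Td against Ti, and 0 (50th percentile) to 2683 (array weights) around 597 in Sd against C. Signals near background limit *rsad2* in C and Sd, *ifit8*, *adar* and *samhd1*.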
